A study of Homo sapiens with 4 samples.

Results

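A set of 10 cancer-linked long noncoding RNAs, UCA1, MALAT1, NEAT1, HOTAIR, HOTTIP, PVT1, GAS5, TUG1, MEG3 and CRNDE, was followed in T24 cells. They were chosen by gene name, and all 10 were found among the 60623 genes of the deposited expression table. In control T24 cells 7 of them were present, in the order GAS5, NEAT1, TUG1, UCA1, MALAT1, PVT1 and CRNDE, with control means from 567.7 TPM down to 11.02 TPM (a relative transcript abundance that takes transcript length into account). HOTAIR, HOTTIP and MEG3 had between 0 and 2 reads in each library. Of the 7 tested for a response to CBX7, 0 passed an adjusted p of 0.05 in edgeR's quasi-likelihood test, which called 0.0202% of all genes tested. UCA1, the RNA named for urothelial cancer, stood at 0.984 times its control level with a 95% interval from 0.779 to 1.24.

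T24 is an established line of human bladder carcinoma cells. The labels name 2 libraries of control T24 cells and 2 libraries of T24 cells overexpressing CBX7, all grown in RPMI medium with 10% FCS. According to the study's methods, full-length CBX7 was cloned into a pCDH-3xFLAG expression vector. The labels do not say what the control cells carried, or whether the cells were a pool or clones. CBX7 is a chromobox protein of Polycomb repressive complex 1, which binds trimethylated lysine 27 of histone H3 and keeps target genes silent. The comparison asked which RNAs change when this protein is raised in bladder cancer cells.

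Long noncoding RNAs act as RNA, without being translated. UCA1 (urothelial cancer associated 1) was found as an RNA abundant in bladder carcinoma, and it lies among olfactory receptor and cytochrome P450 genes. MALAT1 and NEAT1 are neighbours on chromosome 11 and stay in the nucleus, MALAT1 in speckles that hold splicing factors and NEAT1 as the scaffold of paraspeckles. HOTAIR and HOTTIP are transcribed from HOX gene clusters. With MEG3, TUG1 and CRNDE they have been described as binding Polycomb or other chromatin-modifying complexes, and CBX7 itself has been reported to bind RNA. GAS5 carries small nucleolar RNAs (snoRNAs) in its introns, and PVT1 lies next to MYC.

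The libraries held between 20800910 and 25135488 counts each. CBX7 checked the labels: it stood at 10.9 and 9.67 CPM (each library's counts on a common total, after TMM scaling) in the control libraries and at 1774 and 1595 CPM in the CBX7 libraries. Of 14 bladder epithelial markers, KRT7, KRT8 and KRT18 were abundant, at control means of 1207, 870.2 and 1114 TPM, whereas 6 were at or under 3 counts in all 4 libraries, KRT5 was at 0 and CDH1 had 3 counts in total. Of these markers 8 were tested, 0 were called by edgeR and 2 had an unadjusted p under 0.05, against 4.74% of all genes tested. All 8 had a log2 fold change above 0, with a median of 0.29 (0.47 between the libraries numbered 1, 0.10 between those numbered 2, and 0.21 after correction for gene length). The 2 with an unadjusted p under 0.05 were GATA3, a transcription factor of the urothelium, and KRT19, an epithelial keratin. GATA3 had 3 and 4 counts in the control libraries, 14 and 22 in the CBX7 libraries, and a log2 fold change of 2.28 (edgeR adjusted p = 0.602). GATA3 passed the filter on low counts only through its CBX7 libraries, which favours a rise. KRT19 had 156 and 120 counts against 446 and 285, with a log2 fold change of 1.35 (95% interval 0.77 to 1.92, edgeR adjusted p = 0.352), 1.43 between the libraries numbered 1 and 1.09 between those numbered 2. It was called at 1.34 by DESeq2's Wald test (adjusted p = 0.00361). The 9 markers of blood, endothelial, muscle and liver cells summed to between 1.35 and 2.49 TPM per library, with 4 of 9 at or under 3 counts in all and 0 of 3 tested called. The libraries differed by transcript length, within groups as well as between them. Between the libraries numbered 1, the log2 ratio of CBX7 over control fell with gene length across 11077 genes (Spearman's rho -0.62), from a median of 0.29 in the 2770 shortest genes to -0.28 in the 2769 longest, and for CBX7 replicate 2 over control replicate 2 the rho was 0.04. Within groups, replicate 1 leaned to short genes over replicate 2 in both, with a rho of -0.49 for control cells and -0.70 for CBX7 cells. Genes are not independent replicates, so no p is given for these. Each member below is given with this trend left in and with each library corrected for it.

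**Figure D1:**
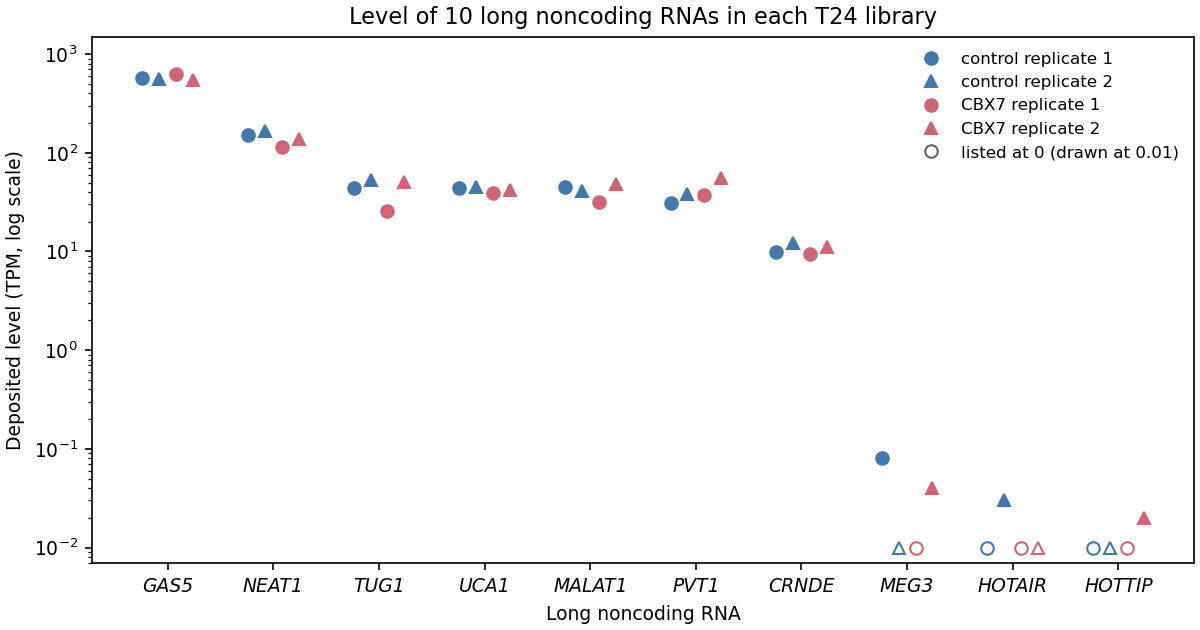
Deposited TPM (log scale) of the 10 long noncoding RNAs in the 4 T24 libraries, control in blue and CBX7 in red, replicate 1 as circles and replicate 2 as triangles. GAS5 and NEAT1 stood above 100 TPM in every library, whereas MEG3, HOTAIR and HOTTIP were at or below 0.08 TPM.

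UCA1 (ENSG00000214049) lies on the plus strand of chromosome 19 from 15828206 to 15836326 in GRCh38, by GENCODE release 29. Of its 4152 exonic bases, 489 overlap exons of LINC01764 on the opposite strand, and the sources used here do not say whether reads were counted by strand, so reads from that stretch cannot be told apart. The first 150 bases of its longest annotated transcript, UCA1-213, are printed to identify the RNA that the counts refer to.
UCA1-213: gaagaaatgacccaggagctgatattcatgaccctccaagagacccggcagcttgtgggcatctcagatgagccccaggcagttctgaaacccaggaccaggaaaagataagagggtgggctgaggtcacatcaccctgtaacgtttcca
UCA1 had 981 and 810 counts in control replicates 1 and 2, and 992 and 834 in CBX7 replicates 1 and 2. Its level was 43.98 and 44.54 TPM in the control group, against 38.85 and 42.21 TPM in the CBX7 group. This placed it 36th by control level among the 4959 long noncoding genes with a control TPM above 0, and 1203 of those reached 1 TPM. On the CPM scale the 4 libraries read 41.1, 38.6, 41.1 and 37.3. The CBX7 libraries fell on both sides of control replicate 2. The log2 fold change was -0.02 with a standard error of 0.14 and a 95% interval from -0.36 to 0.31 (edgeR quasi-likelihood, Benjamini-Hochberg adjusted p = 0.980). After correction for the table's gene length it was -0.05 and for the implied length described below -0.13, and over the alternatives with all libraries it ranged from -0.13 to -0.02. With 2 libraries per group, the 95% interval of UCA1 holds changes in either direction, and it is not a limit of detection. The same fit did not call KRT19 at a log2 fold change of 1.35 (edgeR adjusted p = 0.352). How large a change of UCA1 would have been called was not tested. The 3 neighbours of UCA1 that were examined, OR10H1 (an olfactory receptor) and CYP4F11 and CYP4F12 (cytochrome P450 enzymes), had 23, 16 and 0 counts in total over the 4 libraries and failed the filter on low counts.

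MALAT1 (ENSG00000251562, chromosome 11, 65497688 to 65506516, plus strand) and NEAT1 (ENSG00000245532, chromosome 11, 65422774 to 65445540, plus strand) are the nuclear RNAs of the set. Both can end in a triple helix in place of a poly(A) tail, formed when an A-rich tract folds onto a pair of U-rich motifs. The 2 ends are printed because in NEAT1 this end belongs to the long form of the RNA, the form that builds paraspeckles. Capitals mark the runs of 8 or more bases that both ends hold, with T for U, and these include the known U-rich motifs and A-rich tract.
NEAT1-202: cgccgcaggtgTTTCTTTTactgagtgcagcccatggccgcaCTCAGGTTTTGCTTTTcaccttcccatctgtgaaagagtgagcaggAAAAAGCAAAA
MALAT1-202: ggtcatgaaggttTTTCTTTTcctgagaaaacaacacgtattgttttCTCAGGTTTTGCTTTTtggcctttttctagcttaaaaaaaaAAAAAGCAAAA
The NEAT1 stretch covers bases 22645 to 22743 of that transcript, its very end, and the MALAT1 stretch bases 8257 to 8355 of 8708. The 3 shared runs, TTTCTTTT, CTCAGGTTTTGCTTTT and AAAAAGCAAAA, stand in the same order in both, on the transcript strand of GENCODE 29.

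NEAT1 was the higher of the 2 nuclear RNAs. It had 152.8 and 167.6 TPM in control cells and 114.2 and 136.8 TPM in CBX7 cells, and MALAT1 had 45.26, 40.59, 31.85 and 48.51 TPM in the same order. NEAT1 exceeded MALAT1 by 2.82 to 4.13 times in each of the 4 libraries on this scale. The size of that ratio depends on the length each RNA was scaled by. Dividing count by TPM gives that length, after calibration on genes with 1 annotated transcript, 82.1% to 83.2% of which fell within 5% of the calibration line. For NEAT1 the implied length was 2832 and 2821 bases in control cells and 2516 and 3084 bases in CBX7 cells. Its annotated long form measures 22743 bases, and 2 of its short forms, NEAT1-201 and NEAT1-203, measure 3441 and 3524. The implied lengths of NEAT1 therefore sat nearer to the short forms in all 4 libraries. MALAT1 had implied lengths of 2286 to 2610 bases, against 8708 for its longest transcript. The CBX7 libraries of NEAT1 lay on both sides of the control libraries in this measure. Expected counts and TPM per gene do not give the isoforms themselves. The study's methods do not state whether RNA with poly(A) tails was selected. How far the levels of MALAT1 and of the long NEAT1 form depend on that step cannot be told.

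**Figure D2:**
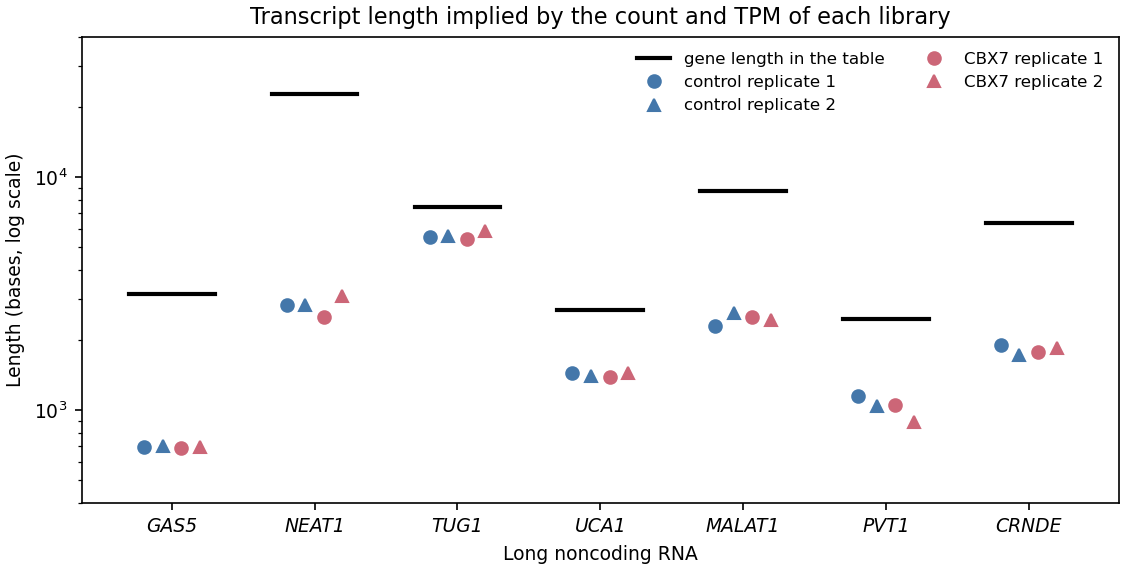
Transcript length implied by the count and TPM of each library (points) and gene length in the deposited table (black bars), in bases on a log scale, for the 7 long noncoding RNAs that were present. NEAT1 was scaled by 2516 to 3084 bases although its table length is 22743 bases, while TUG1 was scaled by 5435 to 5847 of 7469 bases.

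NEAT1 stood at 312.6 and 326.5 CPM in control cells and at 241.8 and 289.5 CPM in CBX7 cells. Both CBX7 libraries lay below both control libraries, a pattern shared by 14.8% of the 14862 genes tested. The log2 fold change was -0.27 (standard error 0.14, 95% interval -0.62 to 0.09) and did not pass the test (edgeR, Benjamini-Hochberg adjusted p = 0.951). NEAT1 belongs to those 2769 longest genes, and the log2 ratio to the control library of the same number was -0.37 for CBX7 replicate 1 and -0.17 for CBX7 replicate 2. Corrected for the table's gene length, the log2 fold change was 0.03. Corrected for the implied length it was -0.25. Which length suits this RNA was not tested. Without CBX7 replicate 2 it was -0.40 with an adjusted p of 0.000394 (edgeR), in a fit that called 35.5% of all 15452 genes. Fits with 1 library left out have 1 residual degree of freedom, and edgeR set their prior degrees of freedom to infinity (3.61 with all libraries), so their p-values take each gene's spread from the trend over all genes. Without CBX7 replicate 1 it was -0.14 (adjusted p = 0.796).

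MALAT1 stood at 72.9 and 72.5 CPM in control cells and at 66.9 and 79.3 CPM in CBX7 cells. The CBX7 libraries lay on opposite sides of the control libraries, which were nearly equal. The log2 fold change was 0.01, with a 95% interval from -0.35 to 0.37 (edgeR, adjusted p = 0.995). Corrected for the table's gene length it was 0.18, and for the implied length 0.01.

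The proteins of these nuclear bodies were encoded by abundant transcripts. All 10 of the paraspeckle and speckle protein genes were tested, 0 passed by edgeR and 0 had an unadjusted p under 0.05, and 5 of 10 had a log2 fold change above 0 with a median of 0.02, beside 7471 of 14862 genes and a median of 0.0017 over all genes tested. HNRNPK and NONO, RNA-binding proteins of paraspeckles, had log2 fold changes of -0.01 and -0.02. SRSF1, a splicing factor, had the highest value at 0.17, and SRRM2, the long messenger RNA of a speckle scaffold, the lowest at -0.25 (SRRM2 was 0.52 lower in pair 1 and 0.05 lower in pair 2 on the log2 scale). Without CBX7 replicate 2, SRSF1 (0.29) and SRRM2 (-0.63) had an adjusted p under 0.05, and without CBX7 replicate 1 they were at 0.045 and 0.05. The flanking gene FRMD8 had a log2 fold change of 0.11 (standard error 0.13).

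GAS5 (ENSG00000234741, chromosome 1, 173863900 to 173868882, minus strand) was the most abundant member. It had 578.4 and 557.0 TPM in control cells and 627.6 and 542.3 TPM in CBX7 cells, 12.5 to 16.2 times the level of UCA1 in each library, and ranked 5th among long noncoding genes. Transcripts of GAS5 are known to begin with a run of pyrimidines, the sequence that places messenger RNAs of ribosomal proteins under growth control. The host RNAs SNHG16 and SNHG8 are printed beside it because they share this start. Each line gives the first 40 bases of a transcript with the gene's longest such run, in capitals.
GAS5-226: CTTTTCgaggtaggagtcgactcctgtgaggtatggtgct
SNHG16-205: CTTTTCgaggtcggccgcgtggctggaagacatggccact
SNHG8-205: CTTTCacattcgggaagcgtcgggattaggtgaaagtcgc
A start with C followed by at least 4 pyrimidines, on the transcript strand, was annotated for at least 1 transcript in 8 of 14 snoRNA host RNAs (57.1%), against 16.7% of 13348 genes with a mean of at least 1 TPM. Counted per transcript it was 13.0% of 138 against 2.63% of 117021. Of the 10 members it was found in GAS5 (6 of 29 transcripts), UCA1 (1 of 36) and CRNDE (2 of 14). For SNHG16 it was 2 of 8 transcripts and for SNHG8 1 of 5. Such a match describes the annotation and not a measured start site.

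On the CPM scale GAS5 read 196.6 and 186.7 in the control group, against 256.7 and 177.7 in the CBX7 group. CBX7 replicate 1 was the highest and CBX7 replicate 2 the lowest of the 4. This gave a log2 fold change of 0.18 (standard error 0.20), with a 95% interval from -0.32 to 0.68 (edgeR, adjusted p = 0.951). The sign turned with the library used: without CBX7 replicate 1 the log2 fold change was -0.10, and without CBX7 replicate 2 it was 0.42 (edgeR, adjusted p = 0.000213). GAS5 was scaled by an implied length of 686 to 699 bases, far below the 3145 of the table. Its log2 fold change was 0.19 after correction for the table's length and -0.05 after correction for the implied length. The table's length exceeds that of the longest annotated transcript of GAS5 (1698 bases), PVT1 (1699 against 2450) and CRNDE (2601 against 6325).

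A list of 14 other snoRNA host RNAs was read in the same way. All 14 were tested and 0 were called by edgeR, by DESeq2 or by limma. Of these, 12 had a log2 fold change above 0, with a median of 0.19, beside 0.0017 for all genes tested. The median was 0.34 for CBX7 replicate 1 over control replicate 1 and -0.07 for the second pair. It was 0.17 after correction for the table's gene length and -0.03 for the implied length, so the direction of this median depends on the length used. The 3 most abundant were SNHG6 at 731.9 TPM, SNHG8 at 292.7 TPM and ZFAS1 at 243.4 TPM in control cells, with log2 fold changes of 0.29, 0.24 and 0.29. Their standard errors were 0.24, 0.25 and 0.20, and with the implied length they were at 0.0041, -0.05 and 0.095. SNHG1, the member of the list with the lowest value, had -0.03, and -0.14 with the implied length. Without CBX7 replicate 2 SNHG6 (0.58), SNHG8 (0.55) and ZFAS1 (0.53) had an adjusted p under 0.05, and without CBX7 replicate 1 SNHG6, SNHG8 and ZFAS1 were at -0.08, -0.16 and 0.01. ZBTB37, beside GAS5, was not called, with a log2 fold change of -0.22 (standard error 0.47). It was -1.14 without CBX7 replicate 2 (adjusted p = 1.45e-06, edgeR) and 0.35 without CBX7 replicate 1.

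**Figure D3:**
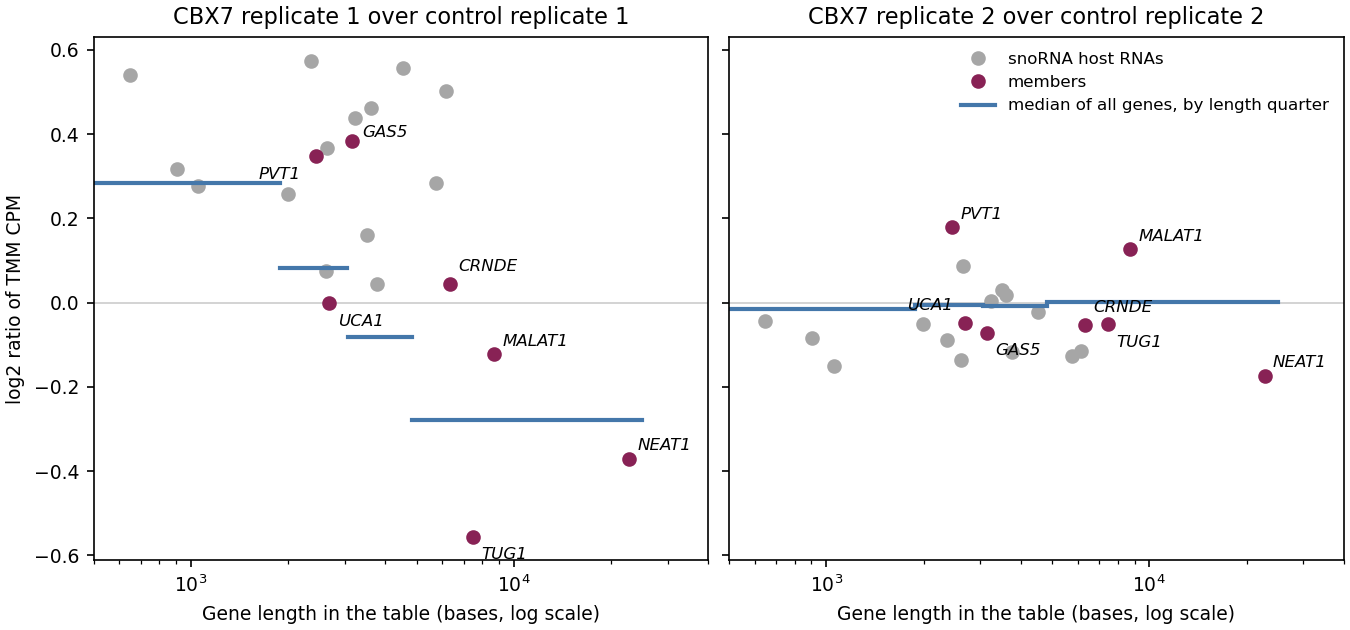
Log2 ratio of TMM CPM of each CBX7 library to the control library of the same number against gene length (bases, log scale), for the 7 members (purple), the 14 snoRNA host RNAs (grey) and the median of all genes in each of 4 length classes (blue lines). In the left panel GAS5 and PVT1 lie above 0.3 and NEAT1 and TUG1 below -0.3, whereas in the right panel all 7 lie between -0.17 and 0.18.

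TUG1 (ENSG00000253352, chromosome 22, 30969245 to 30979395, plus strand) has been described both as a nuclear RNA bound by Polycomb repressive complex 2 and as a cytoplasmic RNA. It had 43.71 and 53.60 TPM in control cells, and 25.82 and 50.07 TPM in CBX7 cells. CBX7 replicate 1 was the lowest, and CBX7 replicate 2 lay between the control libraries. On the CPM scale the values were 184.0, 217.3, 125.1 and 209.7. TUG1 had the widest interval of the 7, from -0.91 to 0.39 around a log2 fold change of -0.26 (edgeR, adjusted p = 0.951). It was -0.68 without CBX7 replicate 2 (adjusted p = 6.03e-09) and 0.07 without CBX7 replicate 1. With each library corrected for the table's gene length the value was -0.15, and for the implied length -0.14. MORC2, the flanking gene, encodes a chromatin ATPase and had a log2 fold change of -0.03 (standard error 0.14).

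PVT1 (ENSG00000249859, chromosome 8, 127794533 to 128101253, plus strand) overlaps a microRNA cluster and is often co-amplified with MYC in tumours. It had 518 and 482 counts in the control group, against 671 and 582 in the CBX7 group. On the CPM scale these were 21.7 and 23.0 against 27.8 and 26.0. Both CBX7 libraries stood above both control libraries, as did those of 15.4% of all genes tested. PVT1 had a log2 fold change of 0.27 (standard error 0.13, 95% interval -0.06 to 0.60), which did not pass the test (edgeR, adjusted p = 0.951). Both pairs had the same sign, at 0.35 and 0.18. Corrected for the table's gene length it was 0.23, and corrected for the implied length 0.13. It was 0.31 without CBX7 replicate 2 (adjusted p = 0.0367) and 0.23 without CBX7 replicate 1. PVT1 reads were scaled by the shortest implied length in CBX7 replicate 2, 890 bases, against 1149, 1041 and 1053 in the other 3 libraries, and its TPM of 55.18 was the highest there, although its CPM was highest in CBX7 replicate 1. MYC, which encodes a growth-promoting transcription factor, had 79.17 and 81.34 TPM in control cells and 77.49 and 85.30 TPM in CBX7 cells, with a log2 fold change of 0.18 (standard error 0.14), 0.28 without CBX7 replicate 2, where it was called, 0.07 without CBX7 replicate 1 and 0.06 with the length correction. PVT1 was 0.389 to 0.647 times MYC in TPM.

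CRNDE (ENSG00000245694, chromosome 16, 54845189 to 54929189, minus strand) is known from colorectal cancer and lies beside IRX5. It was the lowest of the RNAs present, at 9.93 and 12.12 TPM in control cells and 9.33 and 10.98 TPM in CBX7 cells. Its CPM values of 12.9, 13.5, 13.3 and 13.0 were the most even of all members. They gave a log2 fold change of -0.0038, with a 95% interval from -0.36 to 0.35 (edgeR, adjusted p = 0.996), and 0.13 and -0.06 with the corrections for the table's and the implied length. Of its neighbours, which encode developmental transcription factors, IRX5 had a log2 fold change of 0.19 (standard error 0.35) and IRX3 of 0.29 (standard error 0.20), IRX3 being at 0.46 (adjusted p = 0.0479) without CBX7 replicate 2 and at 0.10 (adjusted p = 0.971) without CBX7 replicate 1.

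HOTAIR, HOTTIP and MEG3 were at the limit of detection. HOTAIR (ENSG00000228630, HOXC cluster, chromosome 12, 53962308 to 53974956, minus strand) had 1 read, in control replicate 2. HOTTIP (ENSG00000243766, HOXA cluster, chromosome 7, 27198575 to 27207259, plus strand) had 1 read, in CBX7 replicate 2. MEG3 (ENSG00000214548, an imprinted gene, chromosome 14, 100779410 to 100861031, plus strand) had 2 reads each in control replicate 1 and CBX7 replicate 2. A count of 0 allows up to 3 counts, which is 0.119 to 0.144 CPM in these libraries, and such limits cover counting error only. All 3 RNAs were at or under this limit in every library, so no fold is given and a change could not be detected at this depth. In bulk RNA, fewer expressing cells and less RNA per cell cannot be told apart. DLK1, the imprinted neighbour of MEG3, was at 0 in all 4 libraries and MEG8 had 3 counts. HOXC11, HOXC12 and EVX1 were at 0 in all 4 as well.

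Promoter windows of HOTTIP and CRNDE are printed to set a member at the limit of detection beside a present one. CpG-rich promoters are the ones that Polycomb complexes are known to occupy. RefSeq windows from 250 bases before to 50 after the start (GRCh38.p14) were matched for 6 of 10 members. Capitals mark each CG, which reads the same on both strands. The HOTTIP window lies inside the HOTTIP span given above and just upstream of HOXA13, whose minus-strand span ends at 27200106. It is therefore not a window of HOTTIP alone, and HOXA13 had 42 counts in total. MEG3 had 3 windows and MALAT1 2, and the first listed was used.
HOTTIP, chr7:27200171-27200470, plus strand: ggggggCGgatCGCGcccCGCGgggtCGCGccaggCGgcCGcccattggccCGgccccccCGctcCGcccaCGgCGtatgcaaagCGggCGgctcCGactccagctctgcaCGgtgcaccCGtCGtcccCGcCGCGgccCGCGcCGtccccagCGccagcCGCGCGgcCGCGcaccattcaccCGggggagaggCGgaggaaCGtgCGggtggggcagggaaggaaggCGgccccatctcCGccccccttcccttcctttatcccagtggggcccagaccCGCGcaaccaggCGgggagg
CRNDE, chr16:54928837-54929136, minus strand: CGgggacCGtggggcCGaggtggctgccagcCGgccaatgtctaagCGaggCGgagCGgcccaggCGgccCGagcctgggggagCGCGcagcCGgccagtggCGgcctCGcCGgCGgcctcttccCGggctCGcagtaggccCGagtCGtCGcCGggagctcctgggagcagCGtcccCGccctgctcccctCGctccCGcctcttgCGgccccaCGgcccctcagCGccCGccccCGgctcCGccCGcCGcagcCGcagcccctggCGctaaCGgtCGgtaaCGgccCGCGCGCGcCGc
HOTTIP held 41 CG and CRNDE 44, more than 93.3% and 95.8% of 35116 promoter windows, whose median was 14. MALAT1 held 37, TUG1 28, MEG3 19 and GAS5 5. HOTTIP and CRNDE thus had similar CG counts, with 1 read and 1205 counts in total. Histone marks and CBX7 binding were not measured in these data.

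HOXA13, the gene beside HOTTIP, had a low but countable level. The control libraries held 5 and 6 counts and the CBX7 libraries 16 and 15, or 0.210, 0.286, 0.662 and 0.671 CPM. Both CBX7 libraries were above both control libraries, which held for 15.4% of all genes tested. The log2 fold change was 1.42, with a standard error of 0.45, and did not pass the adjusted threshold (edgeR, adjusted p = 0.879). HOXA13 passed the filter on low counts only through its CBX7 libraries, and a gene kept that way tends to show a rise. Its rise and its lack of overlap are therefore given as values only. HOTTIP shares 86 exonic bases with HOXA13 on the opposite strand, and HOTTIP had 1 read in total. Over all 17 neighbouring genes of the members that were looked up, 9 were tested, 0 were called by edgeR, 1 (HOXA13) had an unadjusted p under 0.05, and 6 had a log2 fold change above 0 with a median of 0.13.

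Other noncoding RNAs of the HOX clusters and of Polycomb regulation were detected. Of 14, 11 were tested, 0 passed in edgeR and 1 had an unadjusted p under 0.05. Of the tested, 5 had a log2 fold change above 0 with a median of -0.02. HOTAIRM1, from the HOXA cluster, was the most abundant at 18.62, 15.94, 17.73 and 19.03 TPM. HAGLROS, from the HOXD cluster, had the highest value: its CPM was 3.27 and 3.48 in the control group, against 6.05 and 4.88 in the CBX7 group, which is a log2 fold change of 0.70 (standard error 0.22, edgeR adjusted p = 0.859). HAGLROS lies on the plus strand within the span of the antisense RNA HAGLR on the minus strand, so without a stated strand setting their reads cannot be told apart where they overlap. HAGLR did not pass the test, at 25.2 and 25.8 against 20.4 and 23.5 CPM (log2 fold change -0.22, standard error 0.14). Neither HAGLR nor HAGLROS had overlapping groups, as was so for 30.2% of all genes tested. Both passed without CBX7 replicate 2, at -0.32 and 0.84, in the fit that called 35.5% of all genes, and without CBX7 replicate 1 they were at -0.12 and 0.54. HOXB-AS1 had the lowest value, -0.57, with a standard error of 0.46, and was at -0.15 without control replicate 1 and -0.88 without control replicate 2.

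A further 23 cancer-linked long noncoding RNAs were looked up, of which 19 were tested and 0 passed in edgeR. A log2 fold change above 0 was found for 9 of 19, and the median was -0.01. NORAD, a long cytoplasmic RNA that binds Pumilio proteins, was the most abundant, at 114.0 and 131.6 TPM in control cells and 68.19 and 127.2 TPM in CBX7 cells, the same pattern over libraries as TUG1 (log2 fold change -0.26, standard error 0.21, and -0.58 without CBX7 replicate 2, where it was called, against 0.0036 without CBX7 replicate 1). CYTOR and MIR4435-2HG followed, at control means of 99.1 and 96.7 TPM, and since their sequences are nearly identical the split of reads between them is uncertain. They had log2 fold changes of 0.32 and 0.15, or 0.11 and 0.0051 with the implied length, and CYTOR was called at 0.41 without CBX7 replicate 2 and was at 0.23 without CBX7 replicate 1. TP53TG1 had the highest value of the list, 0.64 (standard error 0.22, unadjusted p = 0.0293, adjusted p = 0.941), with 3.02 and 2.71 CPM in control cells and 4.72 and 4.21 CPM in CBX7 cells. LUCAT1, an RNA induced by stress, had the lowest, -0.99 (standard error 0.40, adjusted p = 0.951), from 1.76 and 1.86 to 0.621 and 1.21 CPM. Both passed without CBX7 replicate 2, at 0.71 and -1.53, and without CBX7 replicate 1 they were at 0.56 and -0.57.

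Across the members, 0 of the 7 tested passed an adjusted p of 0.05 in edgeR, 0 in DESeq2's Wald test and 0 in limma on log2 TPM, and 0 had an unadjusted p under 0.05 in edgeR. The same edgeR fit called 3 of 14862 genes (0.0202%), DESeq2 called 0.451%, and 4.74% had an unadjusted p under 0.05 in edgeR. Of the 7 members, 3 had a log2 fold change above 0 and 4 below, with a median of -0.0038. The groups did not overlap for 2 of 7, NEAT1 and PVT1, and for 30.2% of all genes tested. With 2 libraries per group an exact permutation test of a single gene cannot go below p = 0.333. Nothing says that the libraries came from separate cultures, so the p-values measure only the spread between these libraries.

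**Figure D4:**
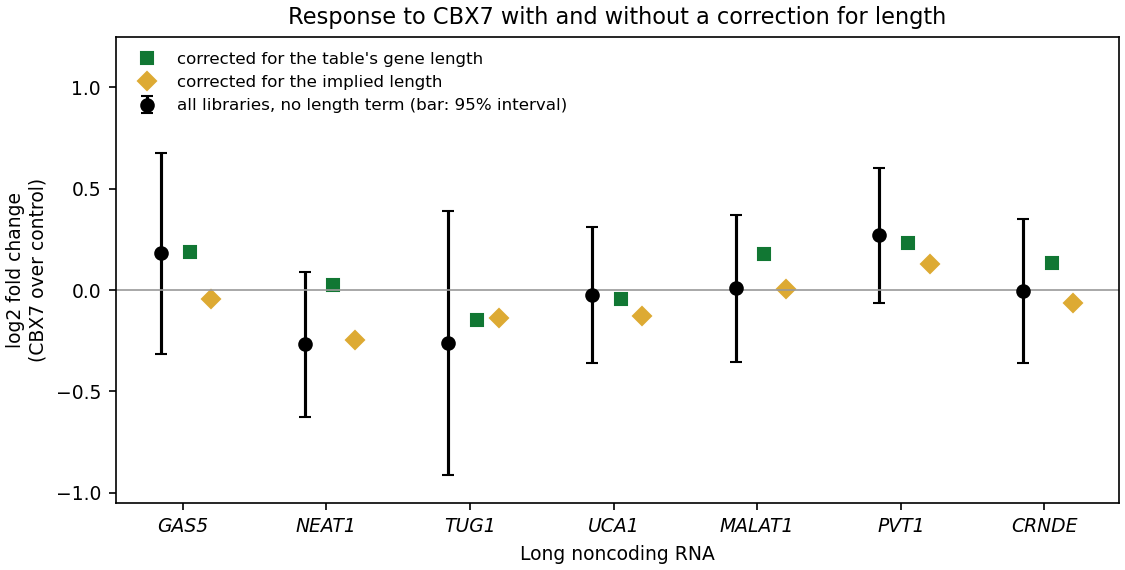
Log2 fold change of CBX7 over control for the 7 members tested (black points, bars are 95% intervals from edgeR), and the value after each library was corrected for the table's gene length (green squares) or for the implied transcript length (yellow diamonds). All 7 intervals include 0, and NEAT1 moves from -0.27 to 0.03 with the table's length and to -0.25 with the implied length.

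The order of the levels was firm only at its ends. GAS5 over NEAT1, NEAT1 over TUG1, and PVT1 over CRNDE did not overlap in either group. TUG1 and UCA1, and UCA1 and MALAT1, overlapped in both groups, and MALAT1 and PVT1 overlapped in CBX7 cells. When CPM per kilobase of the table's gene length was used in place of TPM, the order became GAS5, TUG1, UCA1, NEAT1, PVT1, MALAT1 and CRNDE. NEAT1 then stood at 12.9 CPM per kilobase, and UCA1 at 14.7.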

How the data were processed

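Libraries were made from total RNA with random primers and sequenced on an Illumina HiSeq instrument. The authors deposited, per gene and library, an expected count (between 66.9% and 68.6% of the values above 0 were whole, with a tolerance of 0, and the rest were rounded here) and a TPM value. The submitters' processing notes name cutadapt 1.9.1, HISAT2 2.0.1, HTSeq 0.6.1, DESeq2 and hg19. The tool behind the counts that are not whole is not given in the sources used here. Of the gene identifiers, 96.5% were found in GENCODE release 29 (GRCh38), which was used for positions and transcripts. The files hold no coordinates, and the authors' columns of group means, fold, log2 fold change and p-values were not used.

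Genes were kept by filterByExpr, libraries scaled by TMM, and groups compared by glmQLFit and glmQLFTest of edgeR 4.0.16 (R 4.3.3), with no term but group and adjustment by Benjamini-Hochberg over 14862 genes. DESeq2, which the submitters' notes name with no role, was run as an alternative (version 1.42.0). Other alternatives used limma 3.58.1 on log2(TPM + 1) and log2(TPM + 0.1) with a mean of at least 1 TPM, other scalings and filters, the replicate number as a term, a lowess correction (span 0.3) for gene length, and each library left out. The correction with the implied length was added after seeing the data. Ratios within a replicate number add 0.5 CPM. Simulated counts for this comparison were drawn with the same dispersion for every gene. They therefore do not show what share of real changes would be called. With a log2 change of 1.5 put into 200 of 14862 genes, edgeR recovered 186 with 2 false calls. With a length trend added to 1 library it recovered 137 with 1 false call, and 184 with 8 false calls after the length correction. The chi-square per degree of freedom between libraries of a group was 6.06 and 54.7, so none was a copy. All members are named. From each other list every called gene, the 3 most abundant and the genes with the largest rise and fall are named, and every tested neighbour, except 3 genes that are not reported here. SNHG16, the untested neighbours and the markers KRT5, KRT19 and CDH1 were named outside this rule after their values were seen. The members and lists were chosen with earlier results of these data known. LINC00473 was not analysed here.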

Additional observations from a re-analysis of the deposited data

How the results depend on the processing

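Members passing an adjusted p of 0.05 numbered 0 in every fit with all libraries, and between 0 and 4 when 1 library was left out (GAS5, NEAT1, TUG1 and PVT1 without CBX7 replicate 2, in a fit that called 5491 of 15452 genes, or 35.5%). The number of all genes called was 3. It was 265 with no filter, 67 with DESeq2, 361 with the replicate block, 549 with the replicate block and the length correction, 35 with the implied-length correction, and 45 to 5491 with 1 library left out. The replicate number is only a shared number, and deviations of same-numbered libraries correlated at 0.38 over tested genes and at 0.62 over genes with at least 100 counts, in only 2 pairs. The block changed no call among the members. Among the other named genes KRT19 and GATA3 passed with it (adjusted p = 2.21e-09 and 0.0369, edgeR). GATA3 had entered the test only through its CBX7 libraries. CYTOR passed at 0.47 with the block and the length correction (adjusted p = 0.018, edgeR). With the implied length CYTOR was at 0.1099 (adjusted p = 0.878, edgeR). KRT19 also passed with no filter (adjusted p = 4.16e-07), and with 1 library left out it ranged from 1.0588 to 1.586, passing in 3 of 4 fits. edgeR's prior degrees of freedom were 3.61 with all libraries and infinite with no filter, with the block and with any 1 library left out (34.3 with the block and the length correction). With an infinite prior each gene's spread is taken from the trend over all genes, and the block and left-out fits have 1 residual degree of freedom. The causes of these changes were not tested.

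Reversed log2 fold changes were MALAT1 at -0.0001 with upper-quartile scaling and at -0.1212 and -0.1245 on the TPM scales. With the length correction they were NEAT1 at 0.0266, CRNDE at 0.1331, MORC2 at 0.0776, SNHG1 at 0.0094 and HOTAIRM1 at -0.0321. With the replicate block and the length correction they were CRNDE at 0.1251, MORC2 at 0.0781, SNHG1 at 0.0017 and HOTAIRM1 at -0.0352. With the implied length they were GAS5 at -0.0461, SNHG8 at -0.0484, HOTAIRM1 at -0.076 and MORC2 at 0.0571. MORC2 was at 0.1061 and 0.1127 on the TPM scales. With 1 library left out, NEAT1 ranged from -0.4038 to -0.1382, PVT1 from 0.2263 to 0.3141, UCA1 from -0.0904 to 0.0415, MALAT1 from -0.1216 to 0.1298, GAS5 from -0.1047 to 0.4197, TUG1 from -0.6829 to 0.0682, HOXB-AS1 from -0.8804 to -0.1469, CRNDE from -0.0407 to 0.0286, HNRNPK from -0.0185 to 0.008, IRX5 from -0.1483 to 0.4568, MORC2 from -0.1311 to 0.0721, NORAD from -0.5814 to 0.0036, SNHG1 from -0.1535 to 0.0819, SNHG6 from -0.0839 to 0.5836, SNHG8 from -0.1631 to 0.5527, SRRM2 from -0.6276 to 0.0535 and ZBTB37 from -1.1376 to 0.3505. Of the 7 places in the TPM order, 2 were kept with CPM per kilobase and 4 to 7 in a single library. With 1 library in a group, that library was assumed to vary like the others.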
